A study of Mus musculus with 2 samples.

Results

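Open chromatin was mapped by DNase-seq around 10 endothelial receptor and junction genes in mouse liver at embryonic day 13.5. In this assay the enzyme DNase I cuts accessible chromatin and the cut ends are sequenced. The genes were Kdr, Flt1, Tek, Tie1, Pecam1, Cdh5, Emcn, Lyve1, Stab2 and Eng, chosen by name among 21938 protein-coding genes of GENCODE vM21. For each gene every peak within 1000 bases of any annotated start, and within 50000 bases of the gene body, was taken from the longer of the deposited peak lists, with the footprints and the false discovery rate stretches there. A peak is a stretch of raised cleavage, and a footprint is a short protected stretch. The liver came from embryos of strain C57BL/6N,129 whose labels name an LCR deletion and, beside it, a HET globin mutation; both libraries carry this label. LCR, HET and the genotype of single embryos are not spelled out in the labels. The 2 libraries, biological replicates 1 and 2, are 1 group: their biosamples differ, their donor identifier is shared, and sex was not collected. With no control group and 2 libraries, values are set side by side and no p-values are given.

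Endothelial cells line blood and lymphatic vessels. VEGF acts on them mainly through the receptor tyrosine kinase Kdr, while Flt1 binds VEGF tightly and limits its supply to Kdr. Angiopoietins act through Tek, whose relative Tie1 modulates it. Pecam1 and the cadherin Cdh5 hold neighbouring endothelial cells together, endomucin (Emcn) is a sialomucin of the vessel surface, and endoglin (Eng) is a coreceptor for TGF-beta and BMP ligands. Lyve1 and Stab2 bind hyaluronan and mark lymphatic vessels and the sinusoids of the liver. Several of these genes are also known from other cells: Kdr, Tek, Pecam1, Eng and Lyve1 are made in some blood progenitors, platelets or macrophages.

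The sequences of 7 peaks are given because they carry the sites described for 6 of the genes: the single promoter called in both libraries, intronic sites of the VEGF receptors and Pecam1, and upstream sites of Cdh5, Stab2 and Eng. Each reads 5′ to 3′ along the strand of its gene, from the RefSeq GRCm38.p6 (mm10) genome, over the peak of 1 library. Capitals mark bases in a footprint of replicate 1 or replicate 2.
Kdr promoter peak, chr5:75978481-75978700, minus strand: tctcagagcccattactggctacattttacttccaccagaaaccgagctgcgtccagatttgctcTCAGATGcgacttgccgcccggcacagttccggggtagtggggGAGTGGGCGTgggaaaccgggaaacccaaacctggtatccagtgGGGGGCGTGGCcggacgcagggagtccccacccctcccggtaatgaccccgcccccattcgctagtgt
Kdr intron 10 peak, chr5:75962241-75962500, minus strand: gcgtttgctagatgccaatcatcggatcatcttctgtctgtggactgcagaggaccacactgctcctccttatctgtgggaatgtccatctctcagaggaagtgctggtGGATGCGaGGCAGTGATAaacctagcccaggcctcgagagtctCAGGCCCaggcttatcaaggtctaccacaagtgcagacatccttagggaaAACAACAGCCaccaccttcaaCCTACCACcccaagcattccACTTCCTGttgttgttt
Flt1 intron 20 peak, chr5:147584041-147584200, minus strand: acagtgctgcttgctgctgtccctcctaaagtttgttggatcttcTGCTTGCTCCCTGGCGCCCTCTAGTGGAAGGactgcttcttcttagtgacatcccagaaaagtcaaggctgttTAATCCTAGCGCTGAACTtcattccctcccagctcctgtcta
Pecam1 intron 1 peak, chr11:106723721-106723919, minus strand: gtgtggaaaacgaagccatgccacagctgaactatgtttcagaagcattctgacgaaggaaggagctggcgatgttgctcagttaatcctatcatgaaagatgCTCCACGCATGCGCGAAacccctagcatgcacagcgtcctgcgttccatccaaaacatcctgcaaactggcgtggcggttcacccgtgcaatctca
Cdh5 upstream peak, chr8:104099446-104099700, plus strand: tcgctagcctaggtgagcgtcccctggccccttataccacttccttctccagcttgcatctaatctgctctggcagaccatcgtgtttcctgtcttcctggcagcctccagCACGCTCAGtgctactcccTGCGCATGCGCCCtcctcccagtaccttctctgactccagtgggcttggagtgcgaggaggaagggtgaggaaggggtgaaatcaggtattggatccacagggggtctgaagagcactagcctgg
Stab2 upstream peak, chr10:87025001-87025160, minus strand: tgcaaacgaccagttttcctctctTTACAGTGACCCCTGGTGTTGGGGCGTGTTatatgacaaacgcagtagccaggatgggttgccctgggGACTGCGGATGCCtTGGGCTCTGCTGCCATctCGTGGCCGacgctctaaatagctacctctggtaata
Eng upstream peak, chr2:32638101-32638298, plus strand: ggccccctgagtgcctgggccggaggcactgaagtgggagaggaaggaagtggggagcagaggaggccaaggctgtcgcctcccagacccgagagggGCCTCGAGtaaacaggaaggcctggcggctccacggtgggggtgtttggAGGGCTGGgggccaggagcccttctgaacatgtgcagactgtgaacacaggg

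The libraries held 47198 peaks in replicate 1 and 36523 in replicate 2, with median peak values of 1.232 and 1.248. The peak value is the signal the authors gave each peak, and no source used here says how its scale compares between libraries. The values are whole multiples of a step, 0.01232 in replicate 1 and 0.01386 in replicate 2, with departures of at most 0.00408 and 0.00482 steps. Were each step 1 read on a scale of 1000000 reads, the depths would be 81.2 and 72.1 times that number. Poisson intervals at 95% confidence below rest on that assumption and cover counting error only. Of the markers of other liver cells, 9 of 10 erythroid genes, 5 of 10 blood stem and progenitor genes, 4 of 10 hepatoblast genes, 3 of 10 stellate and mesenchymal genes and 1 of 10 macrophage genes had a promoter peak in both libraries. The share over all protein-coding genes was 54.1%, so the progenitor count is near the background. No peak of either library lay at the promoters of Alb and Hnf4a of the hepatoblast list, of Col1a2 and Acta2 of the stellate list, or of Adgre1 and C1qa of the macrophage list. Other members of these lists had one in both libraries. Foxa3 of the hepatoblast list had 9.414 in replicate 1 and 4.325 in replicate 2. Col1a1 of the stellate list had 2.415 and 1.4, and Spi1 of the macrophage list had 1.503 and 1.469. The part of these other cells in the values below was not tested. In whole liver, fewer cells of a type and less open chromatin per cell cannot be told apart.

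The starts of the endothelial genes were mostly without a peak. A peak lay within 1000 bases of a start in both libraries at 1 of the 10 genes, Kdr, against 54.1% of all protein-coding genes. Replicate 1 alone had such a peak at 1 of 10, against 58.5% of all genes, and replicate 2 at 2 of 10, Kdr and Flt1, against 55.4%. Counted in either library the number was 2 of 10, against 59.8% of all genes. In the shorter peak lists it was 0 of 10 in both libraries, against 48.8%. The false discovery rate tracks come from the same libraries as the peaks, so they are not an independent line. A stretch under 0.05 within 1000 bases of a start was listed in both libraries at 1 of the 10 genes, against 55.1% of all genes. In replicate 1 the gene was Kdr (all genes 59.7%), and in replicate 2 the genes were Kdr and Flt1 (all genes 56.6%). With stricter limits the number in both libraries was still 1 of 10, against 52.5% of all genes under 0.01 and 49.6% under 0.001. Of the 9 genes without a promoter peak in replicate 1, and the 8 in replicate 2, 0 had a listed stretch near a start, against 2.74% of all genes without a promoter peak in replicate 1 and 2.74% in replicate 2. Tek, Tie1, Pecam1, Cdh5, Emcn, Lyve1, Stab2 and Eng had no peak, no listed stretch and no footprint within 1000 bases of any start in either library.

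**Figure D1:**
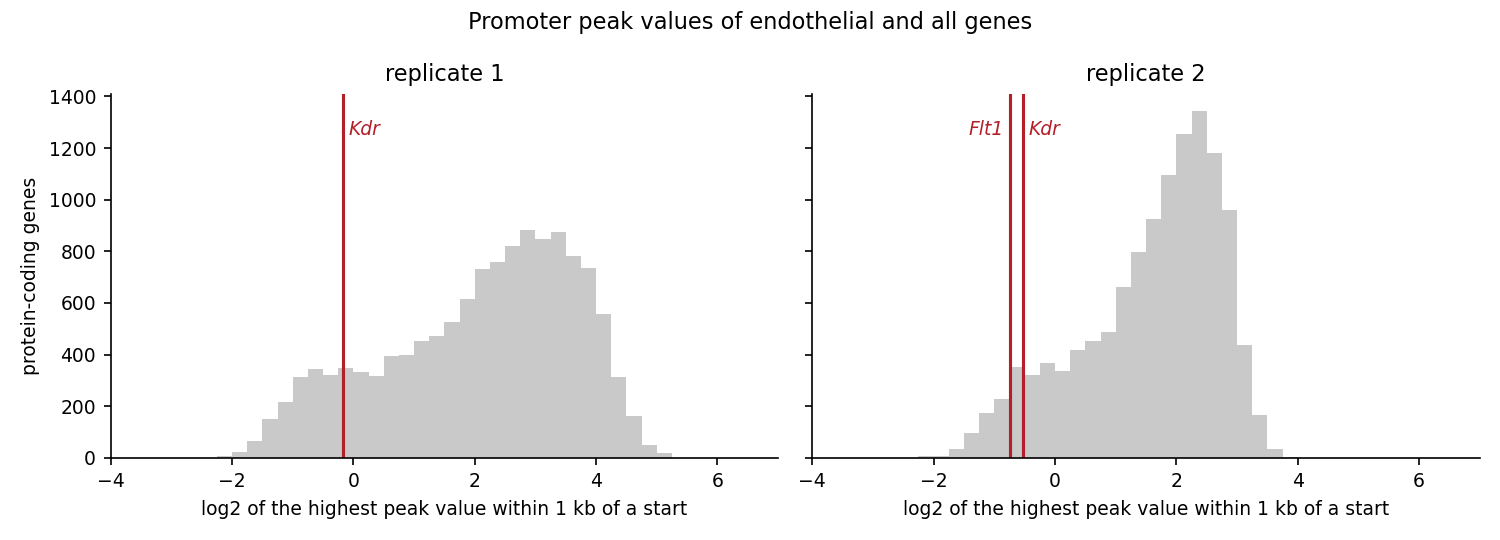
Promoter peak values of endothelial and all genes. The horizontal axis is the log2 of the highest peak value within 1 kb of a start, in replicate 1 (left) and replicate 2 (right); grey bars count protein-coding genes with such a peak and red lines mark endothelial genes. Kdr, at 0.8872 and 0.6931 before the log, stands near the low end of both distributions, and Flt1 has a line in replicate 2 alone, at 0.5961.

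Around the gene bodies, 62 sites were called in at least 1 library: 3 at the genes' own starts, 32 over 1000 bases from every annotated start (distal sites), and 27 at starts of other genes. Of the 32 distal sites, 15 were called in both libraries, 14 in replicate 1 alone and 3 in replicate 2 alone. The shared portion was 46.9%, against 43.3% of all 25978 distal sites. At least 1 shared distal site lay within 50000 bases of 7 of the 10 genes, against 54.5% of all protein-coding genes. Windows grow with gene length, and among genes of like length (0.8 to 1.25 times) the share was 56.7% to 64.8%, depending on the gene. A distal site of either library lay there for 9 of 10, against 74.3%, and the exception was Tek. Inside the gene body a shared distal site was present in Kdr, Flt1 and Pecam1, 3 of 10, against 16.3% of all genes. The endothelial genes had a mean of 1.5 shared distal sites and a median of 1, against a mean of 1.21 and a median of 1 over all genes. Neither the share in gene bodies nor these means were matched for gene length.

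The endothelial genes' own sites, promoter and distal, had low values beside the starts of their neighbours. Own sites ran between 0.3081 and 4.867 in replicate 1, with a median of 1.004 over 30 sites, and between 0.4575 and 3.687 in replicate 2, with a median of 0.8317 over 21. The starts of other genes in the same windows had a median of 4.393 in replicate 1 (24 sites, 0.5422 to 15.67) and 3.16 in replicate 2 (20 sites, 0.901 to 9.523). The 2 sets overlap in range. Over all distal peaks of the libraries the median values were 0.9118 and 0.901, close to those of the endothelial sites.

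**Figure D2:**
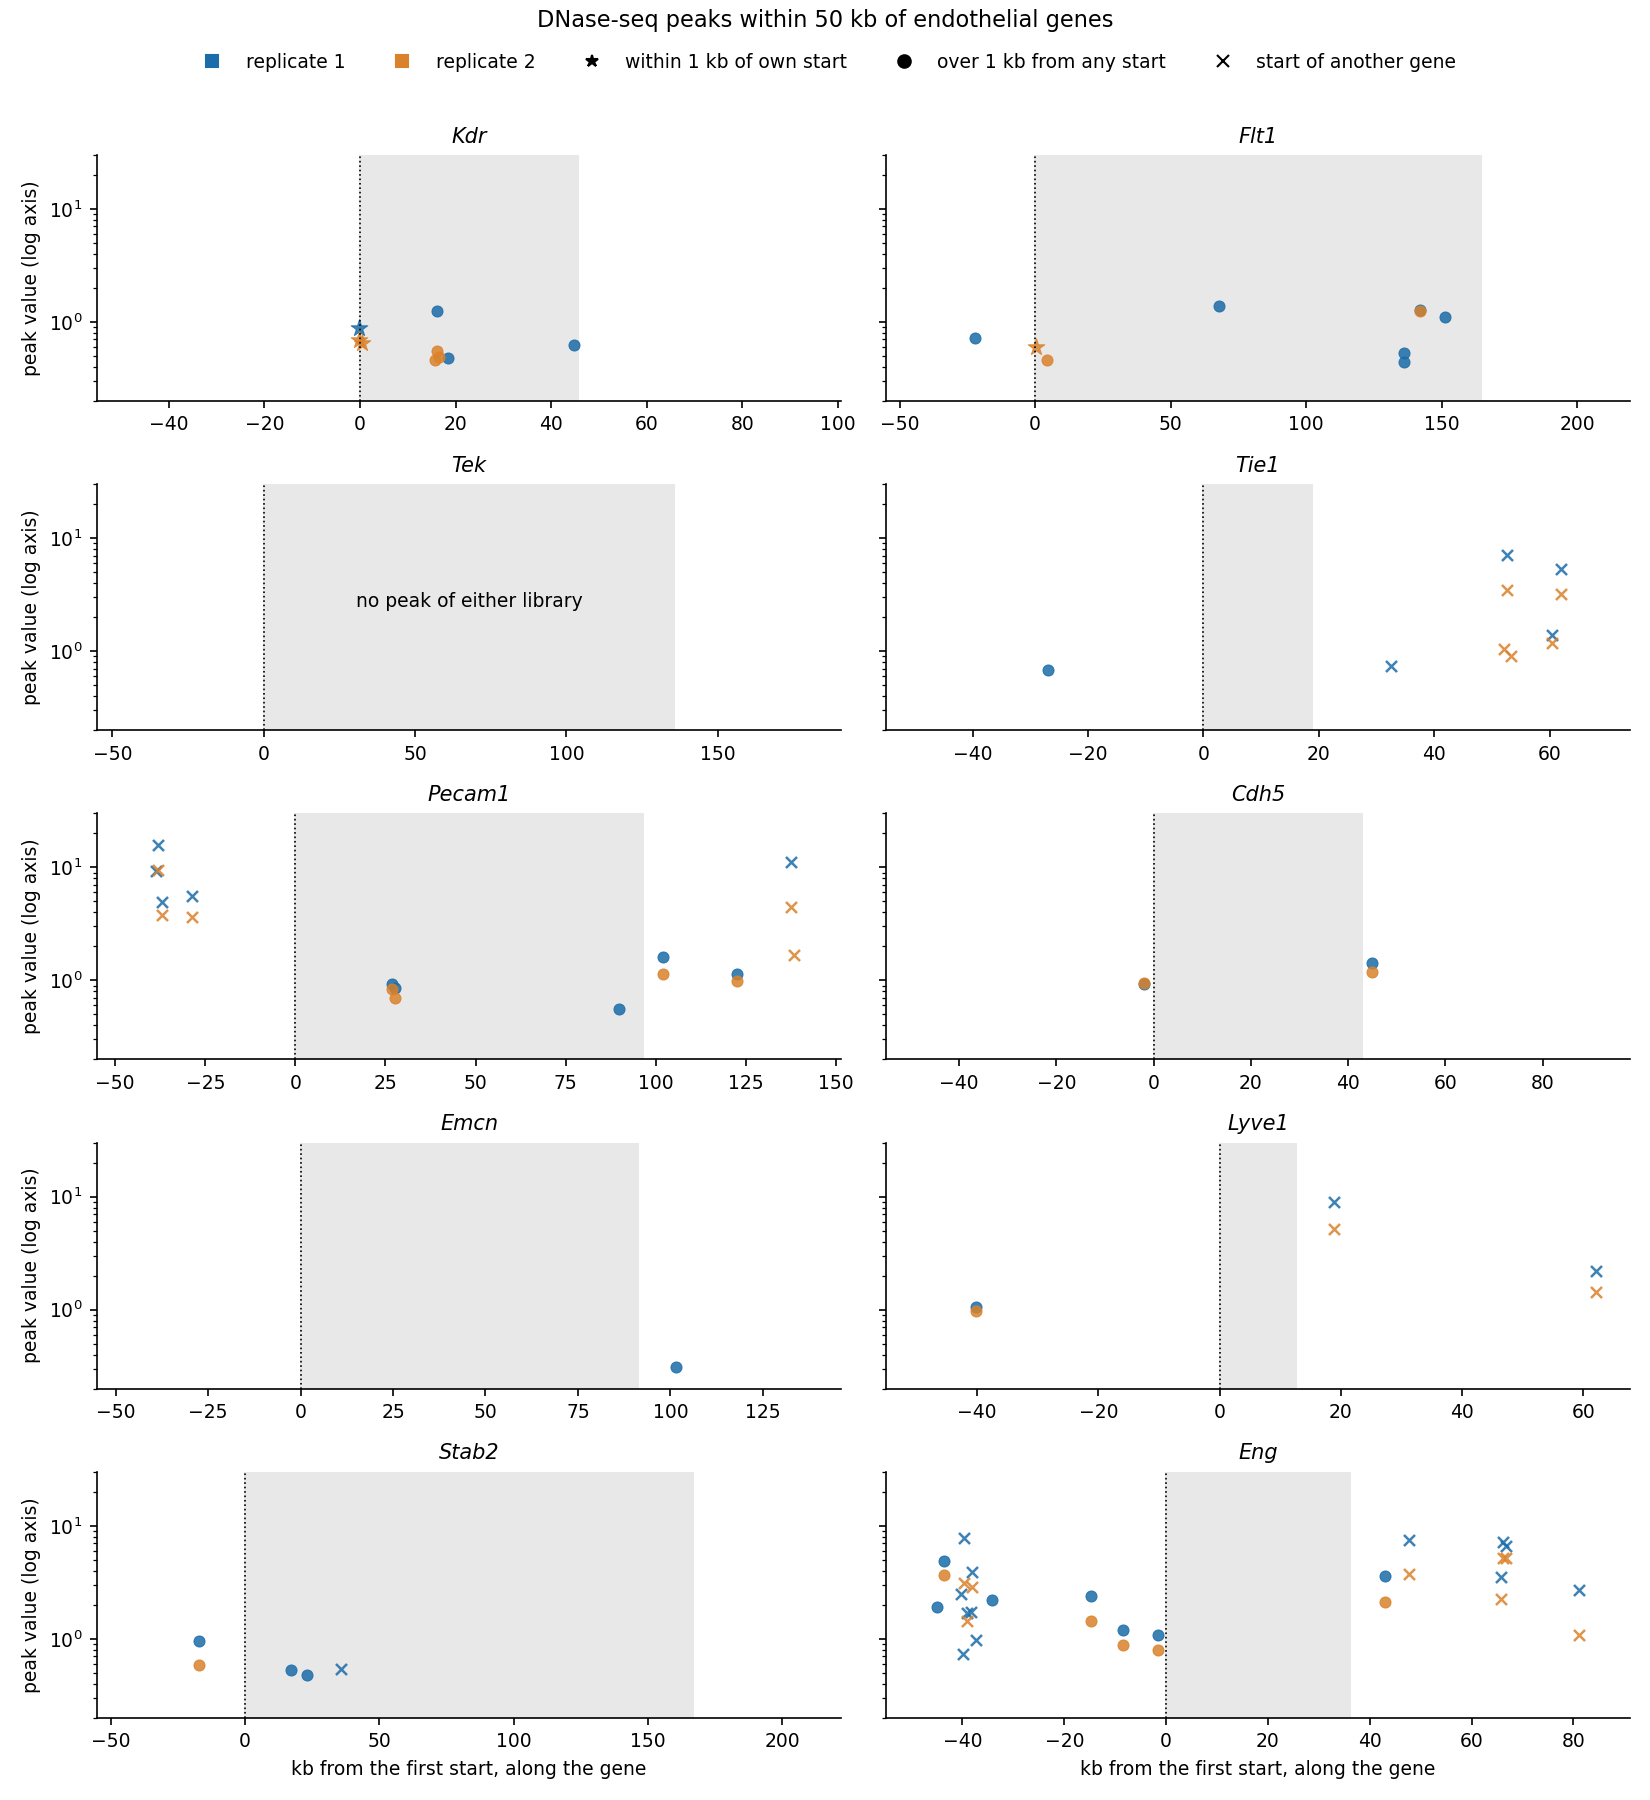
DNase-seq peaks within 50 kb of the 10 endothelial genes. Each panel shows distance in kb from the gene's first start, in the direction of transcription, against peak value on a log axis; grey marks the gene body, stars are peaks within 1 kb of the gene's own start, circles are distal peaks and crosses lie at starts of other genes. Tek has no peak, Emcn has a single peak past its end, and the highest values near Tie1, Pecam1, Lyve1 and Eng are crosses.

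The VEGF receptors were the members with peaks at their own starts. The Kdr promoter site, chr5:75978471-75978731, ended 13 bases upstream of the start, and its peak in replicate 1 is the first sequence above. Its value was 0.8872 in replicate 1 (interval 0.694 to 1.12) and 0.6931 in replicate 2 (0.514 to 0.914), so the intervals overlap. Among genes with a promoter peak it stood at the 12.1 percentile in replicate 1 and the 7.06 percentile in replicate 2, and the median gene had 5.212 and 3.604. The lowest false discovery rate in the site was 0.000371 in replicate 1 and 0.000935 in replicate 2. Replicate 2 had a further peak of 0.6515 over the first exon, chr5:75978045-75978216, which replicate 1 lacked. The genes with promoter values nearest to those of Kdr were Pfn2 and Tspyl5, with the same values in both libraries. Likeness was the distance of the pair of values on the log2 scale, over 2 libraries, and was 0 for both.

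Inside the Kdr peak the footprints of the libraries did not overlap: replicate 1 had 2 and replicate 2 had 1. No share of overlapping footprints over all shared peaks is given, so overlap is only described, here and below. The GC box GGGCGTG, a motif bound by SP and KLF factors, occurred 2 times. The first touched a footprint of replicate 1 and the second lay in the footprint of replicate 2; 8.95% of windows of equal length at all replicate 1 peaks hold this motif. An E-box (CANNTG) filled most of the other footprint of replicate 1, a motif in 64.0% of such windows. The peak held no GATA match (AGATAA or TGATAA) and 1 ETS match (NGGAAG), outside the footprints. All motifs were searched on both strands, and a match is a description of letters. The GC box, NRF1, CTCF and paired FOX and ETS patterns were chosen after the printed sequences were seen. Their shares of windows, here and below, therefore cannot show that a match is unusual.

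Within Kdr the highest site lay in intron 10, 15958 bases downstream of the start, at chr5:75962161-75962500. It had a value of 1.257 in replicate 1 (1.02 to 1.53), and in replicate 2 it was broken into 2 peaks of which the higher had 0.5545 (0.396 to 0.755). The log2 ratio of replicate 2 to replicate 1 was -1.18 and the intervals do not overlap. This ratio sets a whole peak against the higher of 2 parts, and most shared sites were lower in replicate 2. Whether this site itself differed between the replicates was not tested. The lowest rate was 9.95e-08 in replicate 1 and 0.00509 in replicate 2. Replicate 1 had 4 footprints there and replicate 2 had 3, and none of those in the printed peak overlapped between libraries. The sequence holds 3 GATA matches, 1 of them touching a footprint of replicate 1, and 18.6% of windows of that length hold any. Of its 2 ETS matches 1 lay within a footprint of replicate 2, a motif found in 66.2% of windows. An endothelial enhancer is known from intron 10 of mouse Kdr, and whether this site is the same element was not tested. Of the other 4 sites in the gene, 2 called in replicate 1 alone had 0.4806 and 0.6284, and 2 called in replicate 2 alone had 0.4575 and 0.4852. The pair of replicate 2 flanks the intron 10 site.

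Flt1 had a promoter peak in replicate 2 alone. It spanned chr5:147725303-147725760, over an exon with coding and untranslated sequence and 228 bases from the nearest of 5 starts, with a value of 0.5961 (0.431 to 0.803), 1 footprint and a lowest rate of 0.00014. Replicate 1 listed no stretch within 1000 bases of a start, and its nearest peak was 11154 bases away. Flt1 was thus called at its start in 1 of 2 libraries.

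The Flt1 site called in both libraries lay in intron 20, chr5:147584041-147584220, with 1.269 in replicate 1 (1.04 to 1.54) and 1.248 in replicate 2 (1 to 1.53). It was in the shorter peak list of both libraries and had 2 footprints in each. The footprints of the libraries overlapped pairwise, the longer pair over the capitals near the middle of the sequence. A CTCF consensus match lay wholly in the footprint of replicate 2 and partly in that of replicate 1; CTCF binds at insulators and loop anchors, and 7.04% of windows of that length hold such a match. An ETS match at its edge lay in the footprint of replicate 2. The other sites were each called in 1 library: intron 10 with 1.392 and intron 25 with 1.097 in replicate 1, a site 22117 bases upstream with 0.7147 in replicate 1, and intron 18 with 0.5298 in replicate 1. The remaining 2 had 0.4436 in replicate 1 and 0.4575 in replicate 2. The value of 1.392 is not near the lower end of calls, and 35.6% of all distal sites with a replicate 1 value of 1 to 1.5 were likewise called in replicate 1 alone.

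The Tie receptors, like Emcn, had no site of their own called in both libraries. Tek, on chr4:94739289-94874976, had no peak, no footprint and no stretch under the rate limit of 0.05 in either library over the gene and 50000 bases on each side, a window of 235.7 kb. No peak of either library was found within 50 kb of 1 of the 10 genes, against 13.4% of all genes. Among 999 genes of like length, between 0.8 and 1.25 times that of Tek, 3.5% lacked a peak in this way. The nearest peaks to a start of Tek lay 124709 bases away in replicate 1 and 124689 bases away in replicate 2.

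Tie1, on chr4:118471191-118490061, had 1 distal site, which lay 26784 bases upstream, with 0.6777 in replicate 1 (0.511 to 0.882), and replicate 2 had none. The higher sites of its window lay at starts of neighbouring genes. At Cdc20, a cell division gene, the higher site had 7.061 in replicate 1 and 3.452 in replicate 2. At Elovl1, a fatty acid elongase, the values were 5.311 and 3.23 at the higher site, and 1.392 and 1.192 at the lower. Replicate 2 had 2 further peaks at Cdc20, of 0.901 and 1.04.

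The junction genes had no peak at a start, and each had at least 1 shared distal site. Of genes of like length, 63.1% had one for Pecam1 and 59.4% for Cdh5. Pecam1, on chr11:106654217-106750628, had 4 shared distal sites, a number reached by 13% of genes of like length. The site 5577 bases past the end of the gene, chr11:106648421-106648640, had 1.614 in replicate 1 (1.35 to 1.92) and 1.137 in replicate 2 (0.904 to 1.41), with overlapping intervals. It holds a CTCF match, as does the site past Cdh5 described below. Further out, chr11:106627841-106628018 had 1.134 and 0.9842. Of the sites in intron 1, chr11:106723719-106723939 had 0.9242 in replicate 1 and 0.8317 in replicate 2, and chr11:106722921-106723116 had 0.8625 and 0.6931. The last site, of 0.5545, was called in replicate 1 alone.

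The printed Pecam1 intron 1 peak had 1 footprint in each library, and these overlapped. Both enclosed an NRF1 match (CATGCGC), a motif of CpG-rich promoters, which 3.15% of windows of that length hold. This pattern was chosen after the sequence was seen. The other 6 sites of the Pecam1 window lay at other genes. The RNA helicase gene Ddx5 and its neighbour Cep95 shared the highest of all 62 sites, with 15.67 in replicate 1 and 9.523 in replicate 2. At Tex2 the highest site had 11.18 and 4.478, and at the mitochondrial polymerase subunit gene Polg2 the site had 5.594 and 3.674. These neighbours, not Pecam1, held the high values of the window in both libraries.

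Cdh5, on chr8:104101625-104144511, had 2 sites, and both were called in both libraries. This number of shared distal sites was reached by 32.2% of genes of like length. The upstream site, chr8:104099446-104099700, ended 1925 bases before the nearest start, outside the promoter distance of 1000 bases. Its value was 0.9365 in replicate 1 (0.738 to 1.17) and 0.9426 in replicate 2 (0.732 to 1.2), the closest pair of values among the 15 sites matched 1 to 1. Each library had 2 footprints in it, and all overlapped a footprint of the other library. Of these, 1 footprint of each library enclosed 2 overlapping NRF1 matches, a motif in 3.52% of windows of that length. This pattern, too, was chosen after the sequence was seen. The sequence also holds 4 ETS matches, all outside the footprints, a motif in 65.5% of windows. The second site, chr8:104146401-104146600, lay 1890 bases past the gene, with 1.429 in replicate 1 (1.18 to 1.71) and 1.192 in replicate 2 (0.954 to 1.47).

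Emcn, on chr3:137341067-137432185, had a single peak. It lay 10356 bases past the gene and was called in replicate 1 alone, with 0.3081 (0.199 to 0.455), a value at the 3.68 percentile of that library's peaks. The nearest peak of replicate 2 to a start of Emcn was 282447 bases away. Emcn and Tek were the genes of the set with no site that was called in both libraries and no peak of any neighbour in the window.

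The sinusoidal receptors Lyve1 and Stab2 each had 1 shared distal site, a number reached by 56.7% and 62.4% of genes of like length. The site of Lyve1, chr7:110903328-110903517, lay 40089 bases upstream, in the neighbouring gene Mrvi1, with 1.06 in replicate 1 (0.848 to 1.31) and 0.9704 in replicate 2 (0.756 to 1.23). It had 3 footprints in replicate 2 and none in replicate 1. The remaining 2 sites of the Lyve1 window lay at starts of Rnf141, a ring finger gene, with 8.897 and 5.212 at the nearer and 2.181 and 1.442 at the farther. The nearest peak to a start of Lyve1 was 18433 bases away in both libraries, at Rnf141.

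The shared site of Stab2, chr10:87025001-87025160, lay 16976 bases upstream, with 0.9488 in replicate 1 (0.749 to 1.19) and 0.5822 in replicate 2 (0.42 to 0.787), intervals that overlap at their ends. It was in the shorter list of both libraries, with lowest rates of 1.73e-09 and 0.000383. Replicate 1 had 4 footprints in it and replicate 2 had 1, which overlapped 1 of those 4. A GC box match lay in the longest footprint of replicate 1, and 7.56% of windows of that length hold one. No ETS, GATA, E-box, FOX (TGTTTAC) or SOX (ACAATG or ACAAAG) match was in the sequence. Within the gene 3 sites were called in replicate 1 alone: 2 in intron 3, with 0.5298 and 0.4806, and 1 in intron 6 at a start of Gm16271, with 0.5422.

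Eng had the most shared distal sites, 5, a number reached by 4.41% of genes of like length. Of these, 4 lay upstream and 1 past the gene, and 3 of the 5 were inside neighbouring genes. The highest, chr2:32602881-32603060, lay 43535 bases upstream in St6galnac6, a sialyltransferase gene, with 4.867 in replicate 1 (4.4 to 5.37) and 3.687 in replicate 2 (3.26 to 4.16). The site in Fpgs, the folylpolyglutamate synthase gene, chr2:32689501-32689680, had 3.623 and 2.135. The site in Ak1, an adenylate kinase gene, chr2:32631801-32632000, had 2.403 and 1.428. In these 3 the intervals of the libraries do not overlap, and replicate 2 was lower.

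The other 2 sites of Eng lay between Ak1 and Eng. The site 8297 bases upstream, chr2:32638091-32638298, had 1.195 in replicate 1 (0.969 to 1.46) and 0.8872 in replicate 2 (0.683 to 1.13). The site 1520 bases upstream, chr2:32644901-32645075, had 1.072 (0.859 to 1.32) and 0.804 (0.611 to 1.04). For both sites the intervals overlap. The printed peak of the farther site holds a FOX match that shares 1 base with an ETS match. A FOX match alone is in 1.88% of windows of that length, and a FOX match that shares a base with an ETS match is in 0.0297%. The paired pattern was chosen after this sequence was seen, so its share cannot show that the match is unusual. Paired FOX and ETS motifs are known from enhancers of endothelial genes in mouse, and an ETS-bound enhancer is known upstream of mouse Eng; whether this site is that element was not tested. The footprint of replicate 2 touched the FOX match, and the footprint of replicate 1 lay elsewhere in the peak. Replicate 1 alone had 2 more distal sites, of 1.91 and 2.193, both in St6galnac6.

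Eng also had the most sites at neighbours, with 12 at starts of other genes, of which 8 were called in both libraries. The highest by mean of both libraries was at Cdk9, a kinase of transcription elongation, with 7.184 in replicate 1 and 5.24 in replicate 2. A second Cdk9 site had 6.642 and 5.212, Fpgs had 7.443 and 3.729, and St6galnac6 had 7.775 and 3.091 at its highest site. The rest ran between 0.7393 and 3.894 in replicate 1, and between 1.081 and 2.869 in replicate 2. Near Eng most of the high peaks thus stood at other genes' starts, beside the distal site in St6galnac6, while the start of Eng itself had none.

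**Figure D3:**
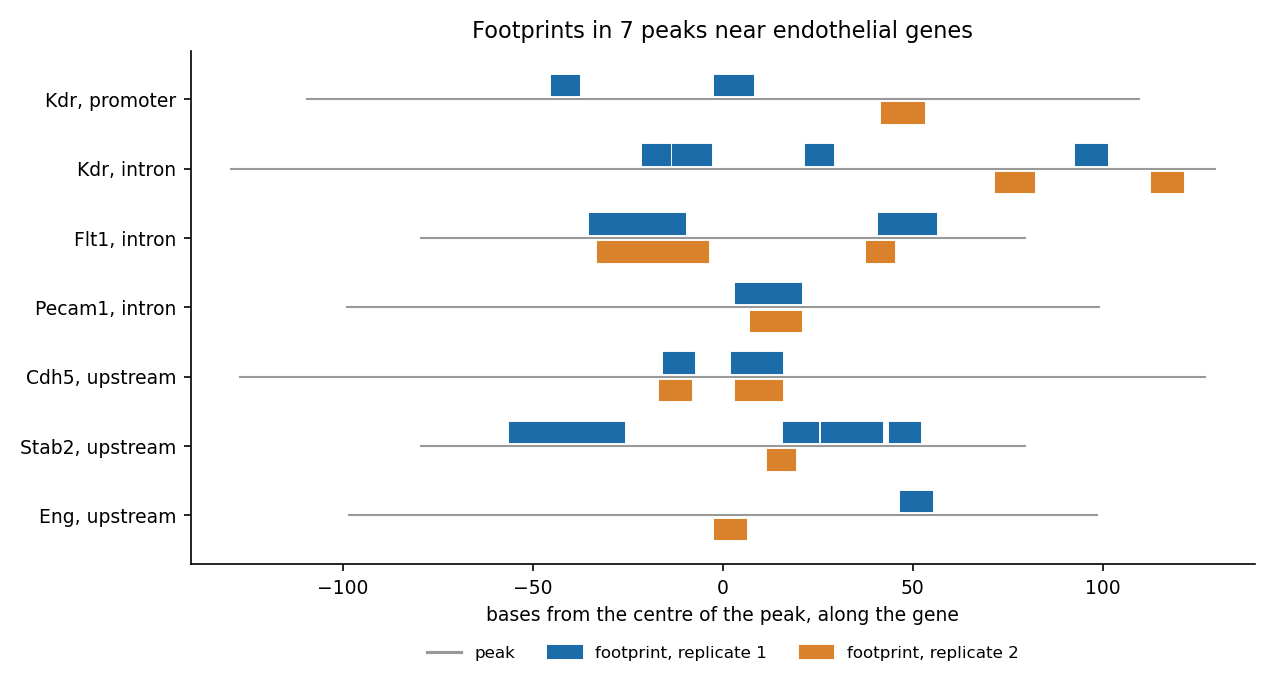
Footprints in the 7 printed peaks. The horizontal axis is distance in bases from the centre of the peak along the gene; grey lines are peaks, blue boxes above are footprints of replicate 1 and orange boxes below are footprints of replicate 2. The boxes of the libraries overlap in the Flt1, Pecam1, Cdh5 and Stab2 peaks and are apart in both Kdr peaks and the Eng peak. How often footprints overlap between the libraries over all shared peaks is not given.

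Of the endothelial genes' own sites, 23 of 30 called in replicate 1 (76.7%) and 16 of 21 called in replicate 2 (76.2%) held a footprint. These shares are near those of all peaks in the same range of values, 75.0% in replicate 1 and 72.2% in replicate 2. Of the 16 own sites called in both libraries, 14 had a footprint in both. The same share over all shared sites is not given, and the shares above, of single libraries, are not its background. Of these 16 sites 11 held an ETS match and 10 an E-box, motifs that 49.1% to 66.2% and 53.5% to 69.5% of windows of 160 to 260 bases at all replicate 1 peaks hold, so both counts are near the background. A KLF match (CCACCC) was in 7, against 22.3% to 32.0% of windows, and a GATA match in 3, against 13.1% to 18.6%. NRF1 matches were in 3, against 2.79% to 3.55% of windows, CTCF matches in 3, against 7.04% to 7.27%, and NFE2 or AP-1 matches (TGANTCA) in 3, against 4.12% to 6.22%. The NRF1 and CTCF patterns were chosen after sequences from some of these sites were seen. With 16 sites, some of them longer than these windows, no order is read from the smaller counts.

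Replicate 2 had lower values at most endothelial sites. Of 15 own sites matched 1 to 1 between the libraries, 14 were lower in replicate 2, with a median log2 ratio of -0.36 and a range of -0.76 to 0.01. This ran with the libraries as a whole: over 26485 such sites 84.4% were lower in replicate 2 and the median was -0.5, and over the 15070 with values up to 2.5 in replicate 1 it was -0.27. With the running median of sites of like height taken off, the endothelial median was -0.09, between -0.49 at the Stab2 site and 0.35 at the Flt1 intron 20 site. All 15 lay inside the range of -0.67 to 0.65 that spans the 5th to the 95th percentile of all shared sites. The Kdr intron 10 site, with the lowest ratio of the own shared sites at -1.18, is outside this tally because replicate 2 split it into 2 peaks.

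**Figure D4:**
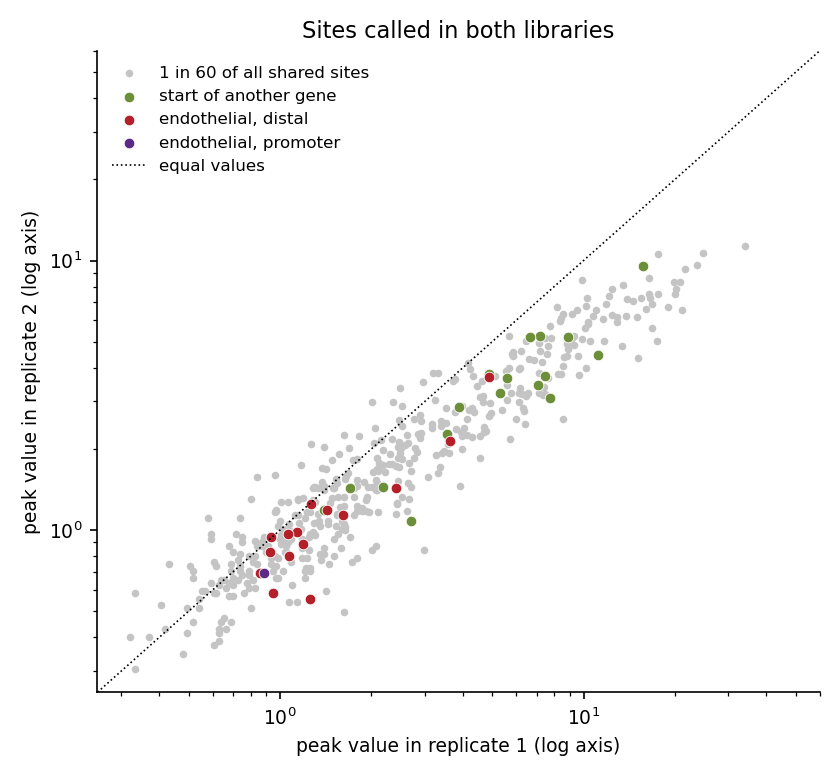
Values of sites called in both libraries. Each point is a site, with its value in replicate 1 and replicate 2 on log axes; grey points are 1 in 60 of all shared sites, and coloured points are endothelial promoter, distal and neighbouring start sites. Endothelial points lie within the grey cloud and, with 1 exception among the distal sites matched 1 to 1, below the dotted line of equal values.

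The CpG content of a promoter goes with openness over all genes, so it is given for the endothelial genes. RefSeq promoter sequence, 250 bases before to 50 after a start, was matched for 7 of 10 of them, too few for a comparison over the set. Pecam1, Cdh5 and Lyve1 had no matched sequence. Flt1 had 29 CpG sites and Kdr 19, against a median of 15 over 16539 genes. Tie1 had 7, Eng 6, Stab2 4, Tek 3 and Emcn 2. Of genes with over 20 CpG sites 86.8% were open in both libraries, and of those with 11 to 20 sites 77.8% were. The shares were 38.2% for 6 to 10 sites, 14.8% for 3 to 5 and 4.47% for 0 to 2. Kdr and Flt1, which had the most CpG sites among the 7, had a peak at their start, Flt1 in replicate 2 alone. Whether CpG content bears on these peaks was not tested.

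The ligands and coreceptors of the VEGF and angiopoietin receptors had a promoter peak in both libraries at 4 of 11 genes. Over all protein-coding genes the share was 54.1%. Vegfa, the main ligand of Kdr, had 5.927 in replicate 1 and 4.062 in replicate 2. Pgf, a ligand of Flt1, had 1.639 and 1.677, the coreceptor Nrp2 had 0.8749 and 0.8179, and Angpt1, the activating ligand of Tek, had 0.3204 and 0.499. Angpt2, Angpt4, Ptprb and Vegfb were without a promoter peak in either library. Vegfa and Pgf thus had higher values than Kdr in both libraries, and Angpt1 had lower ones. Vegfa was near the median gene with a promoter peak, which had 5.212 in replicate 1 and 3.604 in replicate 2.

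The partners of the junction genes mostly had a peak at their start. Among cytoplasmic catenins and tight junction genes, 10 of 12 had a promoter peak in both libraries, against 54.1% of all protein-coding genes. Ctnnb1 (beta-catenin, which binds cadherins) had 12.62 in replicate 1 and 6.723 in replicate 2, and Jup (plakoglobin) had 9.932 and 3.646. Cgn had 3.857 and 1.65, and Ctnna1 had 2.304 and 2.44. The genes without a promoter peak were Cldn5, the claudin of endothelial tight junctions, and Esam, an endothelial adhesion molecule. Most of the catenin genes are used by many cell types.

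Of the TGF-beta and BMP receptor partners of endoglin 9 of 12 had a promoter peak in both libraries, against 54.1% of all genes. The receptor Tgfbr1 had 16.82 in replicate 1 and 6.682 in replicate 2, the signal transducer Smad4 had 8.601 and 5.531, and the receptors Bmpr2 and Acvr2a had 3.142 and 2.786, and 3.167 and 2.44. The genes without one were Acvrl1, the endothelial type I receptor that pairs with endoglin, and its ligands Bmp10 and Gdf2. Acvrl1 and Bmp10 had 2 shared distal sites each and Gdf2 had none.

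Transcription factors that act in endothelium had a promoter peak in both libraries at 11 of 22 genes, near the 54.1% of all genes. The highest were Ets1, with 10.38 in replicate 1 and 5.143 in replicate 2, Hey2 with 9.722 and 5.614, Tal1 with 7.504 and 4.824, and Lmo2 with 4.251 and 3.798. Tal1 and Lmo2 also act in blood progenitors and erythroid cells. Fli1, Foxc1, Foxc2 and Foxf1 were among those without a promoter peak in either library.

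Genes of sinusoidal and lymphatic endothelium, the classes of Lyve1 and Stab2, had a promoter peak in both libraries at 3 of 14. Over all protein-coding genes the share was 54.1%. Clec4g, a lectin of liver sinusoids, had 1.491 in replicate 1 and 1.386 in replicate 2, Reln had 1.331 in both, and Maf had 1.121 and 0.7347. Gata4 had a peak in replicate 1 alone, of 0.8995. Ccl21a, Cd36, Dnase1l3 and Fcgr2b were among those without one. Of other general endothelial genes 5 of 13 had a promoter peak in both libraries, against the same 54.1% of all genes. Vwf, the von Willebrand factor gene also active in megakaryocytes, had 2.883 and 1.414, Plvap had 2.403 and 1.275, Egfl7 had 1.491 and 1.941, and Thbd had 1.023 and 0.6654. Aplnr, Clec14a, Esm1 and Icam2 were among those without one. Reln, Cd34, Gata2, Fli1 and Mrc1 stand both in these lists and among the markers of other cells.

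**Figure D5:**
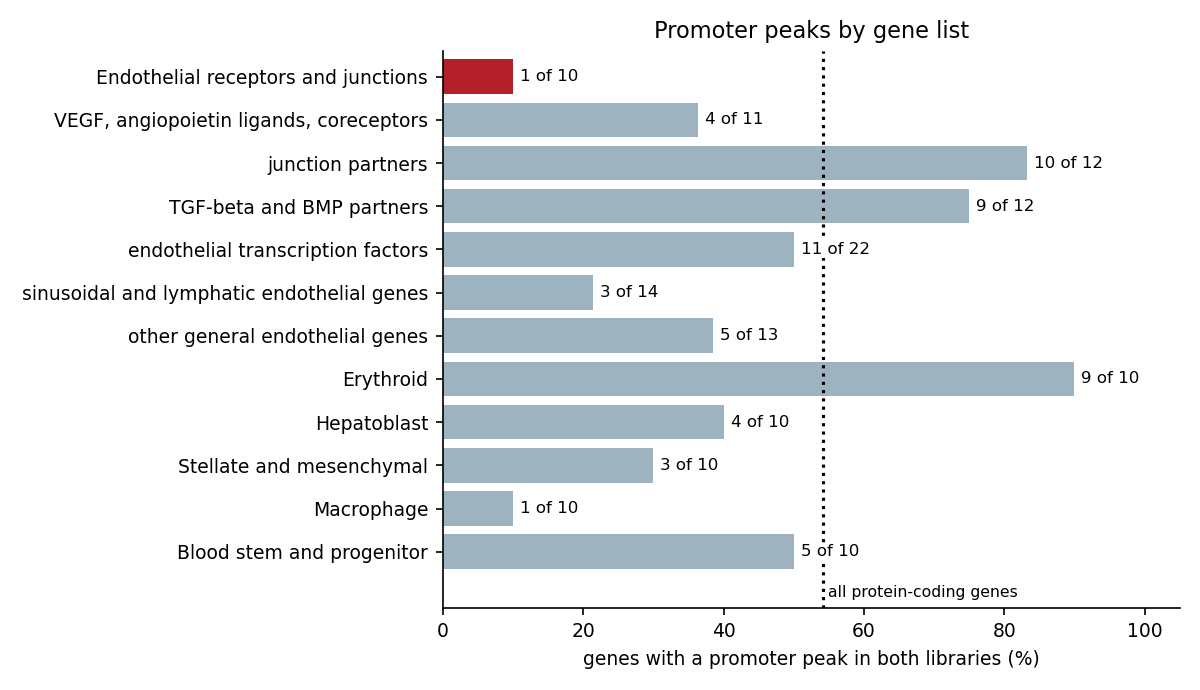
Promoter peaks by gene list. Bars give the share of genes in each list with a peak within 1 kb of a start in both libraries, with counts beside them; the dotted line is the share over all protein-coding genes, 54.1%. The endothelial receptor and junction genes, 1 of 10, and the macrophage markers, 1 of 10, have the shortest bars, and the erythroid markers, 9 of 10, the longest.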

How the data were processed

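DNase-seq libraries of embryonic liver, 1 per biological replicate, were analysed from the deposited mm10 (GRCm38) tables. Per the deposited README and file names, the authors made 4 tables for each library, not pooled: a longer list of peaks, a shorter one, footprints, and the false discovery rate of cleavage. No source used here names the caller or its threshold. Column 7 of the deposited peak lists holds the authors' signal for each peak, per the file's narrowPeak format; its steps are read here as reads scaled by depth, an assumption. The deposited false discovery rate (an adjusted p-value, q-value type) is listed for stretches under 0.05. In the deposited footprint tables the score is a constant 0.01 in every row, so positions alone served.

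The autosomes, X and Y entered. Peaks of the libraries that overlapped by at least 1 base were joined into a shared site, whose value per library is its highest peak. Promoters were within 1000 bases of any start and distal sites over 1000 bases from every start and within 50000 bases of the gene body (GENCODE vM21). Like-height ratios used a running median over 1001 shared sites. Poisson intervals are at 95% confidence. No test was possible with 1 group. The overlap code was tested on simulated intervals. Python 3.11.15, pandas 2.3.3, numpy 2.4.6, scipy 1.17.1 and matplotlib 3.10.9 were used.

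All 10 genes are named with their sites (the 6 highest by mean where there are more), the genes nearest to Kdr (of 3 under the rule, 1 is not reported here), and of each pathway list the 4 highest and up to 4 without a promoter peak, first in the alphabet. Other names were chosen after their values were seen, as were the printed peaks and the NRF1, GC box, CTCF and paired FOX and ETS motifs. The genes and lists were chosen with earlier results of these data known. Alternatives were the shorter list, other distances, overlaps, values, rate limits and footprint positions, and each library alone.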

Additional observations from a re-analysis of the deposited data

How the results depend on the processing

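The number of the 10 genes with a promoter peak in both libraries, 1, was 0 in the shorter peak lists (48.8% of all genes there) and 0 among the upper 50% of peak values. Within 2500 bases of a start it was 3, which took in the sites of Cdh5 and Eng, and leaving out each replicate gave 1 to 2. The number with a stretch under the rate limit, 1, was likewise 3 within 2500 bases and 1 to 2 with each replicate left out. The 15 shared distal sites became 6 in the shorter lists, 4 among the upper 50% of values and 28 within 100000 bases, and leaving out each replicate gave 19 to 29. For the 2500 base distance, the upper 50% of values and the distal settings, no share over all genes is given. The changes in these counts therefore cannot be set against those of all genes. Taking off the running median moved the median log2 ratio of replicate 2 to replicate 1 to -0.09, against -0.36 as deposited. The other 15 settings, among them all of those on footprints, the 50% overlap, the 20000 base distance and the stricter rate limits of 0.01 and 0.001, stayed within 1.5 times or 1 SD of the values reported. No paired analysis was possible because there is 1 group. Low values have wide counting intervals, such as 0.199 to 0.455 at the Emcn peak of 0.3081.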

Other observations

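Some footprints and false discovery rate stretches near the endothelial genes lay outside every peak. The Pecam1 window had 11 footprints outside peaks in replicate 1 and 6 in replicate 2, the Eng window 6 and 4, and the Lyve1 window 3 and 2. Stab2 had 3 in replicate 1 and 0 in replicate 2, and Emcn had 1 and 0. Inside peaks the footprints numbered 43 in replicate 1 and 38 in replicate 2 for Pecam1, and 58 and 32 for Eng. They numbered 8 and 10 for Lyve1, 5 and 1 for Stab2, and 0 and 0 for Emcn. Stretches under 0.05 outside peaks numbered 8 in replicate 1 and 26 in replicate 2 near Eng, 3 and 11 near Flt1, 6 and 6 near Pecam1, and 5 and 3 near Tie1, in windows of 136.1, 264.4, 196.4 and 118.9 kb. The longest of these were 95 bases, in replicate 2 near Kdr, and 92 bases, in replicate 2 near Eng. Tek, Emcn and Lyve1 had no stretch outside peaks in either library. The share of footprints and stretches outside peaks over the whole libraries is not given.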
